A study of Homo sapiens with 12 samples.

Results

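Cells cut plasminogen into the broad protease plasmin with 2 enzymes, the urokinase-type activator uPA and the tissue-type activator tPA, and they hold this step in check with inhibitors of the serpin family. Here 6 genes of that system were followed, the rows whose gene name was PLAU, PLAUR, PLAT, SERPINE2, SERPINB2 or SERPINB5, out of 58735 genes in the table. Each name matched 1 row, and all 6 passed the filter on low values in every comparison. RNA was sequenced from NCM460, a cell line that the labels call normal human colonic epithelium, in 4 groups of 3 libraries. Cells of wild-type genotype were kept in medium, were given TNF-α, or were given TNF-α with 5-OH-TMT, a quaternary tryptamine that the labels name Bufotenidine. The 4th group carried the genotype label HTRA2 knockdown, made with siRNA (si-HTRA2) against the mitochondrial serine protease HTRA2, and also received the inflammatory cytokine TNF-α. The labels give no dose or time, and do not say whether the libraries came from separate cultures. The study's legends set the knockdown against a control siRNA (si-CTRL), but no label of these 12 libraries names one. Whether the TNF-α group is that control is not given in the sources used here, so the knockdown and the transfection with siRNA cannot be told apart. Nor is it given whether the 3 knockdown libraries carried 1 siRNA or several. Every p-value below therefore measures the spread between these libraries, which may be technical.

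PLAU encodes uPA, a secreted serine protease, and PLAUR encodes uPAR, the membrane-anchored receptor that holds uPA at the cell surface. PLAT encodes tPA, which is best known for dissolving fibrin clots. SERPINB2 (PAI-2) inhibits uPA and tPA, and SERPINE2 (protease nexin-1) inhibits both activators and thrombin. SERPINB5 (maspin) belongs to the same serpin clade as SERPINB2 but is not known to inhibit proteases by the trapping reaction of other serpins. In the gut epithelium, the uPA system is known for its links to wound closure and to inflammation.

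The upstream sequences of these genes differ in the motifs they hold, and they are shown because SERPINB2 and PLAU, which moved most with TNF-α, did not share any of them. They were taken from RefSeq (GRCh38.p14), which held 5 of the 6 members by name, and PLAT had no entry. The RefSeq start was 679 bases from the 5′ end of the principal GENCODE 29 transcript in SERPINE2, 181 in PLAUR and 197 in SERPINB5. The bases just after the SERPINE2 start did not match any GENCODE 29 transcript of that gene. The 250 bases before each start were searched on both strands. The AP-1 motif TGANTCA, the GC box GGGCGG and the TATA box TATAAA are in capitals below. The SERPINB2 stretch is chr18:63887455-63887699 on the plus strand, 245 of the 250 bases searched, and overlaps no exon of GENCODE 29. The searched window ran on to 63887704. Its last bases are not printed, because a GENCODE 29 transcript of SERPINB2 begins before the RefSeq start. Distances below are counted from the RefSeq start, not from the end of the printed stretch. The PLAUR window is chr19:43670337-43670366 on the minus strand. The SERPINB5 window is chr18:63476801-63476830 on the plus strand, and the PLAU window is chr10:73911074-73911103 on the plus strand. The PLAUR and SERPINB5 windows overlap first exons of longer transcripts of their own genes in GENCODE 29, in the 5′ UTR, and the PLAU window lies in an exon of C10orf55 on the opposite strand.
SERPINB2: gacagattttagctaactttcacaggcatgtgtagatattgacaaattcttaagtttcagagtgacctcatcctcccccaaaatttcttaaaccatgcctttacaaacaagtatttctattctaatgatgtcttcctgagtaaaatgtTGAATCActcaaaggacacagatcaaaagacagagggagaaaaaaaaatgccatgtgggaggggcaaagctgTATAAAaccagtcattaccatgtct
PLAUR: tcacaactccaTGAGTCAgggccgagccag
SERPINB5: taacttcagccTGAATCAtttctttcaatt
PLAU: gagggagGGGCGGcgccgGGGCGGgccctg

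The AP-1 letters stood in 3 of the 5 promoters, starting 102 bases before the start in SERPINB2, 186 in PLAUR and 146 in SERPINB5, and in 6.57% of the 35116 RefSeq promoters of this length. SERPINB2 was the only member of the 5 with TATAAA, 30 bases before its start, against 10.7% of all promoters. GC boxes stood in PLAU (3 boxes), SERPINE2 (2 boxes) and SERPINB5 (2 boxes that share a base), and in 42.6% of all promoters. The decameric NF-κB motif was found in none of the 5 windows and in 9.96% of all promoters. A match of letters is no evidence of binding, and a missing match says only that the letters are not in this window.

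The 6 genes lie on 5 chromosomes. In the build of the files (hg38, positions compared with GENCODE 29), PLAU (ENSG00000122861) spans 73909177 to 73917497 on the plus strand of chromosome 10, and PLAUR (ENSG00000011422) spans 43646095 to 43670547 on the minus strand of chromosome 19. PLAT (ENSG00000104368) spans 42175233 to 42207724 on the minus strand of chromosome 8, and SERPINE2 (ENSG00000135919) spans 223975112 to 224039319 on the minus strand of chromosome 2. SERPINB2 (ENSG00000197632, 63871692 to 63903890) and SERPINB5 (ENSG00000206075, 63476761 to 63505085) are both on the plus strand of chromosome 18, 366606 bases apart, in a row of 10 clade B serpin genes. Values are FPKM, read counts scaled by the length of a gene's exons and by the depth of the library. The length used covers every annotated exon of a gene, from 2748 bases in SERPINB2 to 8891 in SERPINE2. The transcripts in use were not determined, so levels of different genes can be set side by side only roughly. PLAU shares 916 exon bases with C10orf55 on the opposite strand, whose mean was 0.264 FPKM, and SERPINB2 shares 547 exon bases with SERPINB10 on its own strand, whose mean was 0.0403 FPKM.

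The libraries held 31008429 to 37624399 reads on genes, and 491 to 21611 reads fell on a member in any library. The targeted gene stood at 7.28 ± 0.137 FPKM (SD, n = 3) in the knockdown libraries and at 14.5 ± 0.774 with TNF-α alone, and every knockdown library was below every TNF-α library. TNFAIP3 and NFKBIA, feedback inhibitors of NF-κB, rose with TNF-α by 4.43 and 2.17 on the log2 scale. In the knockdown both rose further against TNF-α alone, TNFAIP3 by 1.02 (limma adjusted p = 0.000702) and NFKBIA by 0.39 (limma adjusted p = 0.00243), beside the rises of PLAU and PLAUR given below. All 5 epithelial markers were expressed, with a summed level of 2118 to 2689 FPKM, but the colonocyte markers CDX1, CDX2, VIL1 and CDH17 summed to at most 0.0158 FPKM in any library and CDX2 was listed at 0 in all 12. The colonic part of the label was thus not borne out by these 4 markers. The squamous markers TP63, KRT5 and KRT14 summed to 160 to 238 FPKM. Mitochondrial genes took 2.95% of the reads in library 2 of the knockdown and 3.69 to 4.68% in the others, and PLAU, PLAUR and PLAT passed the test in the knockdown without that library too.

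The first comparison, TNF-α against medium, addressed what the cytokine does to the system. With TNF-α, 4 of the 6 members rose and none fell. The inhibitor SERPINB2 and the activator PLAU rose most, the receptor PLAUR and the inhibitor SERPINE2 rose by less, and PLAT and SERPINB5 did not pass the test. Over all 18079 genes tested, 3.22% rose and 0.885% fell at the same threshold, an adjusted p under 0.05 by limma with Benjamini-Hochberg adjustment (two-sided). For a DEG the study asked at least a 2-fold change and a p no higher than 0.05 before adjustment, and its RNA-seq methods name no test. With these thresholds set on the limma fold changes and p-values, 3 members passed (PLAU, PLAUR and SERPINB2), beside 2.73% of all genes. Over the 6 members the median log2 fold change was 1.03, and over all genes it was -0.0020.

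SERPINB2 measured 17.2, 16.6 and 16.4 FPKM in the medium libraries and 110, 127 and 132 with TNF-α. The lowest TNF-α library was far above the highest medium library. SERPINB2 had a log2 fold change of 2.86 (SE 0.12, limma adjusted p = 6.28e-08). Of the 11185 genes with a mean of at least 1 FPKM, 17 had a larger log2 fold change with TNF-α. With its rise, 318 genes of the table had a higher mean FPKM than SERPINB2, compared with 2735 genes in medium. In bulk RNA, a larger share of expressing cells and more RNA per cell cannot be told apart.

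PLAU stood at 12.4, 13.7 and 11.8 FPKM in medium and at 55.1, 52.5 and 59.2 with TNF-α. The groups did not overlap, and the spread within each was small beside the gap. Its log2 fold change was 2.13 (SE 0.11, limma adjusted p = 3.36e-07), and 32 genes had a larger one. C10orf55, on the opposite strand, went from 0.116 to 0.294 FPKM on average. Strand use in the counting is not given in the sources used here, and if strand was ignored reads of the shared bases cannot be assigned to either gene.

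PLAUR, the receptor for the PLAU product, measured 6.60, 8.26 and 6.003 FPKM in medium and 14.6, 14.9 and 15.7 with TNF-α. Every TNF-α library was above every medium library. PLAUR rose by 1.12 on the log2 scale (SE 0.12, limma adjusted p = 0.000115). SERPINE2 stood at 7.47, 6.50 and 7.20 FPKM in medium and at 12.6, 14.3 and 14.1 with TNF-α, again without overlap. Its log2 fold change was 0.94 (SE 0.090, limma adjusted p = 5.82e-05).

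PLAT had the lowest mean FPKM of the 6 members in every group. It measured 2.91, 2.93 and 3.03 FPKM in medium and 2.59, 2.38 and 2.82 with TNF-α. Each TNF-α library was below each medium library, but the difference of -0.18 on the log2 scale (95% interval -0.39 to 0.024, limma adjusted p = 0.418) missed the threshold. SERPINB5 measured 16.7, 14.0 and 15.7 FPKM in medium and 16.9, 15.8 and 15.7 with TNF-α. Here the groups overlapped, with a log2 difference of 0.06 (95% interval -0.12 to 0.24, limma adjusted p = 0.823). Groups did not overlap for 4 members that were higher and 1 that was lower, where 11.1% and 8.74% of all genes had such patterns. With 3 libraries against 3, an exact permutation test of a single gene cannot give a two-sided p below 0.1.

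**Figure D1:**
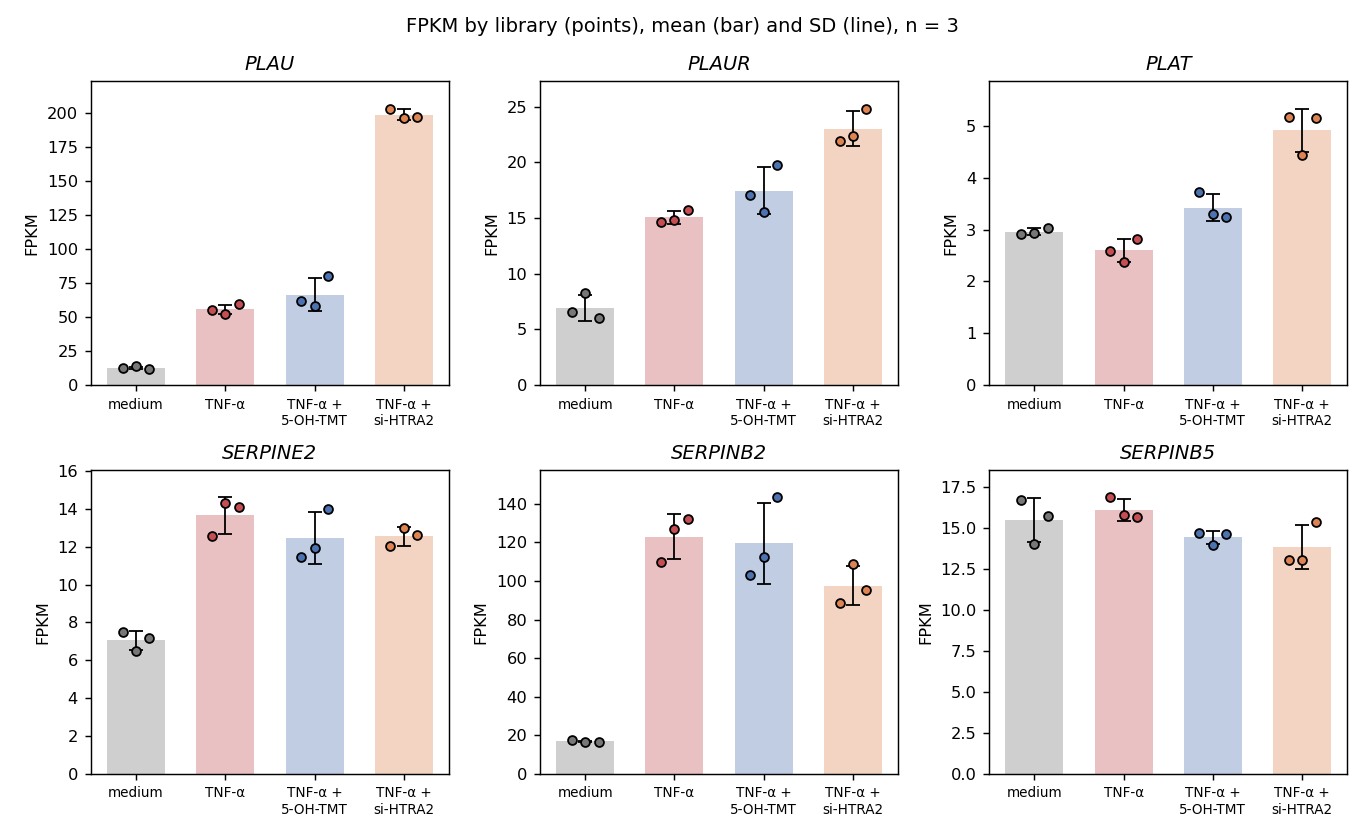
FPKM of the 6 members (vertical axes, each from 0) in the 4 groups, with 1 point per library, bars for the mean and lines for the SD of 3 libraries. PLAU climbs from a mean of 12.6 in medium to 199 with TNF-α and si-HTRA2, whereas SERPINB2 is highest with TNF-α alone (123) and SERPINB5 stays between 13.0 and 16.9 in all libraries.

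In the second comparison, cells given 5-OH-TMT along with TNF-α were set against TNF-α alone, which addressed what the compound adds in stimulated cells. None of the 6 members passed the test by limma (adjusted p), and none did with voom on reads recovered from the FPKM. At an unadjusted p under 0.05 there were 2, PLAU and PLAT, and the share of all genes at that threshold was not counted. At an adjusted p under 0.05, 0.0332% of all genes tested rose in this comparison (6 genes) and 0.00553% fell (1 gene). By the fold rule, the study's thresholds set on the limma fit, no member passed, beside 1.5% of all genes. Over the members the median log2 fold change was 0.078, against 0 over all genes.

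PLAT measured 3.72, 3.29 and 3.25 FPKM with 5-OH-TMT, above each of the TNF-α libraries. Its log2 difference was 0.39 (SE 0.096, 95% interval 0.18 to 0.59), with an unadjusted p of 0.00173 and a limma adjusted p of 0.0962. PLAT was the only member whose 5-OH-TMT libraries all lay above the TNF-α libraries, a pattern that 16.3% of all genes had. Of the 11185 genes, 491 had a larger log2 fold change. The same TNF-α libraries, low for PLAT, enter the comparison with medium, so these differences are not independent, and against medium the 5-OH-TMT group differed by 0.20 (95% interval -0.0082 to 0.41, limma adjusted p = 0.257).

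PLAU measured 61.5, 57.7 and 80.2 FPKM with 5-OH-TMT. Libraries 1 and 3 exceeded the highest TNF-α library and library 2 did not, so the groups overlapped. The log2 difference was 0.24 (95% interval 0.010 to 0.48, limma adjusted p = 0.234), and it was 0.10 without library 3 of the 5-OH-TMT group. PLAUR stood at 17.1, 15.6 and 19.8 FPKM, with a log2 difference of 0.21 (95% interval -0.047 to 0.46, limma adjusted p = 0.341), which was 0.11 without library 3 of the 5-OH-TMT group. Library 3 was again the highest of its group, as it was for SERPINE2 and SERPINB2, though not for PLAT or SERPINB5. It was also the highest for TNFAIP3 (40.4 FPKM, against 26.5 and 24.1) and for NFKBIA (165 FPKM, against 145 and 140).

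The serpins showed log2 differences below 0 that did not pass the test. SERPINE2 measured 11.4, 11.96 and 14.0 FPKM with 5-OH-TMT, and its log2 difference was -0.13 (95% interval -0.33 to 0.063, limma adjusted p = 0.423). SERPINB2 measured 103, 112 and 143 FPKM, overlapping TNF-α alone, with a log2 difference of -0.05 (95% interval -0.31 to 0.21, limma adjusted p = 0.847). The sign of that difference changed when library 3 of the TNF-α group (0.0041) or library 1 of the 5-OH-TMT group (0.050) was left out. SERPINB5 measured 14.7, 13.9 and 14.6 FPKM, each below the 3 TNF-α libraries, with a log2 difference of -0.16 (95% interval -0.34 to 0.024, limma adjusted p = 0.313). Such a lower pattern was seen in 15.5% of all genes. The 95% intervals still allowed a log2 change of up to 0.46 for PLAUR and down to -0.34 for the serpins, so no equality of the groups was shown.

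Against medium, the 5-OH-TMT group showed the 4 rises seen with TNF-α, which is no independent result because it received TNF-α too and shares the medium libraries. In that comparison 4.99% of all genes rose, and 3 members against 3.04% of all genes met the fold rule. The log2 fold changes were 2.37 for PLAU (limma adjusted p = 1.04e-07), 1.32 for PLAUR (2.19e-05), 0.81 for SERPINE2 (0.000140) and 2.81 for SERPINB2 (5.51e-08).

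**Figure D2:**
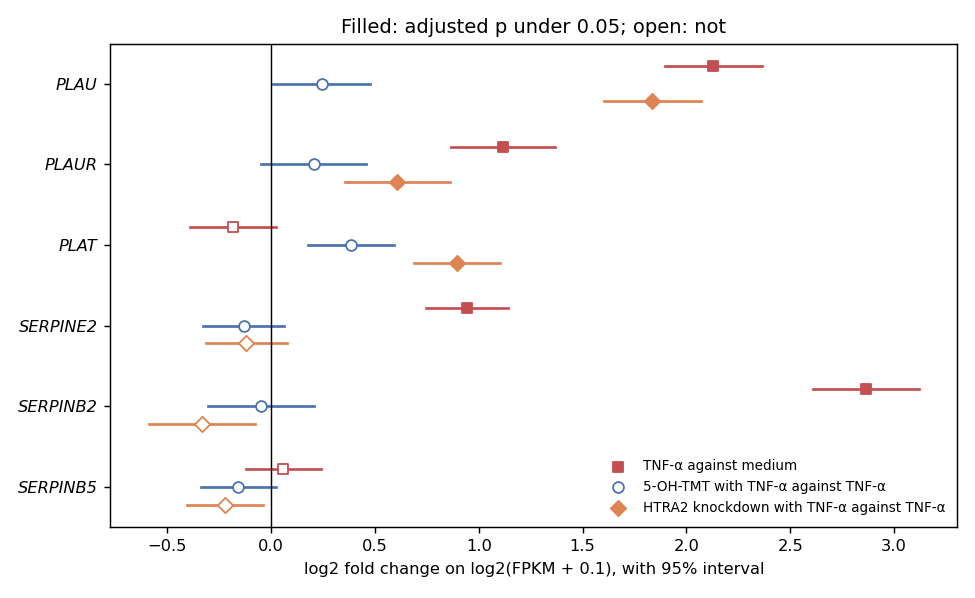
Log2 fold changes of the 6 members on the log2(FPKM + 0.1) scale (horizontal axis) with their 95% intervals, for 3 comparisons, with filled symbols where the limma adjusted p was under 0.05. Filled symbols stand at 2.13 and 1.84 for PLAU with TNF-α and with HTRA2 knockdown, and no 5-OH-TMT symbol is filled.

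The third comparison set the HTRA2 knockdown, given TNF-α, against TNF-α alone. It addressed what the siRNA against HTRA2, with any effect of its transfection, adds in stimulated cells. Both activators and the receptor rose, and none of the 3 serpins passed the test. PLAU rose most, PLAT reached its highest level of the study, and PLAUR rose less. The 3 members that rose stand beside 9.35% of all genes tested that rose in this comparison, and 8.08% fell. PLAU was the 1 member that met the fold rule, beside 4.23% of all genes. A median log2 fold change of 0.24 was found over the members and one of -0.0034 over all genes.

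PLAU measured 203, 196 and 197 FPKM in the knockdown libraries, more than 3 times the highest value with TNF-α alone. PLAU rose by 1.84 on the log2 scale (SE 0.11, limma adjusted p = 3.08e-06), and 37 of the 11185 genes had a larger change. In the knockdown group 174 genes had a higher mean FPKM than PLAU, compared with 769 with TNF-α and 3484 in medium. C10orf55 stood at 0.407 FPKM on average in the knockdown.

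PLAT measured 5.16, 4.44 and 5.15 FPKM in the knockdown libraries. All 3 lay above all other libraries of the study. Against TNF-α alone it rose by 0.90 on the log2 scale (SE 0.096, limma adjusted p = 8.67e-05). PLAT was also higher than in medium, by 0.71 on the log2 scale (limma adjusted p = 0.000208), so that it was the 1 member that rose above medium in the knockdown group but not with TNF-α alone. Whether the knockdown raised PLAT without TNF-α was not tested, because every knockdown library received TNF-α.

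PLAUR measured 21.9, 22.4 and 24.8 FPKM in the knockdown libraries, all above the TNF-α libraries, a rise of 0.61 on the log2 scale (SE 0.12, limma adjusted p = 0.00372). The 3 members with higher, non-overlapping groups stand beside 17.5% of all genes with that pattern.

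SERPINB2 measured 88.8, 109 and 95.4 FPKM with the knockdown, each below the TNF-α libraries, although its highest library (109) nearly met their lowest (110). The log2 difference was -0.33 (SE 0.12, 95% interval -0.59 to -0.078), with an unadjusted p of 0.0149 and a limma adjusted p of 0.0717. It passed the threshold where only genes with a mean of at least 1 FPKM were tested (limma adjusted p = 0.0456) and with voom (0.0310). SERPINB5 measured 13.0, 13.0 and 15.4 FPKM, also below each TNF-α library, with a log2 difference of -0.22 (95% interval -0.40 to -0.041, limma adjusted p = 0.0879). These 2 members stand beside 16.4% of all genes with such a lower, non-overlapping pattern. SERPINE2 measured 12.04, 13.0 and 12.6 FPKM, which overlapped TNF-α alone, with a log2 difference of -0.12 (95% interval -0.32 to 0.077, limma adjusted p = 0.408).

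Against medium, 5 members were higher in the knockdown group and 12.9% of all genes were, while 3 members and 6.52% of all genes met the fold rule. The log2 fold change of PLAU was 3.96 (limma adjusted p = 7.21e-10), with 20 of 11185 genes above it. It was 1.72 for PLAUR (limma adjusted p = 6.80e-07), 0.82 for SERPINE2 (3.79e-05) and 2.53 for SERPINB2 (3.32e-08). SERPINB5 was the exception, at -0.16 (95% interval -0.34 to 0.018, limma adjusted p = 0.185).

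The order of the groups differed between members. For PLAU and PLAUR it was medium, TNF-α, 5-OH-TMT and knockdown, with overlap between TNF-α and 5-OH-TMT and no overlap elsewhere between neighbours. For PLAT it was TNF-α, medium, 5-OH-TMT and knockdown, and no neighbours overlapped, although neither step around medium passed the test and the step from 5-OH-TMT to the knockdown was not tested. For SERPINE2 and SERPINB2, medium was lowest and the 3 groups that received TNF-α overlapped in part. SERPINB5 means ran from 13.8 ± 1.33 FPKM in the knockdown to 16.1 ± 0.655 with TNF-α (SD, n = 3).

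Because activators and inhibitors moved by different amounts, PLAU was also set against SERPINB2 within each library. This was a ratio of FPKM chosen after the values were seen. It does not stand for every inhibitor, since SERPINE2 rose with TNF-α by less than PLAU (0.94 against 2.13 on the log2 scale). PLAU stood at 0.755 ± 0.0618 times SERPINB2 in medium (SD, n = 3) and at 0.455 ± 0.0440 with TNF-α. With 5-OH-TMT the ratio was 0.557 ± 0.0417, and with the knockdown it was 2.05 ± 0.242. The groups compared did not overlap in any of these 3 steps, TNF-α against medium, 5-OH-TMT against TNF-α and knockdown against TNF-α, each with an exact two-sided permutation p of 0.1, the smallest possible. PLAU FPKM was thus below SERPINB2 FPKM in all 9 libraries without the siRNA and above it in all 3 with it.

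The ratio of PLAU to its receptor PLAUR averaged 1.84 in medium, 3.69 with TNF-α, 3.79 after 5-OH-TMT and 8.65 in the knockdown. Its groups did not overlap between TNF-α and medium or between the knockdown and TNF-α, each with an exact two-sided permutation p of 0.1. The ratios overlapped between TNF-α and 5-OH-TMT (exact two-sided permutation p = 0.6).

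**Figure D3:**
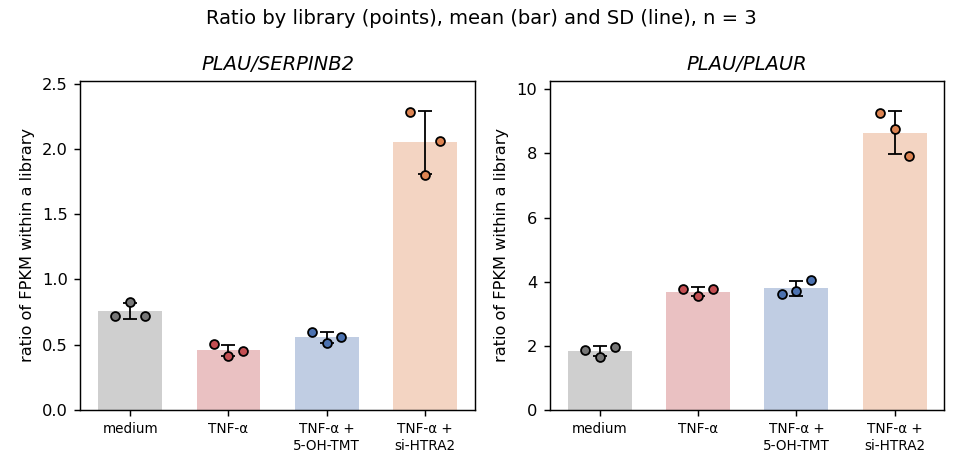
Ratios of FPKM within a library (vertical axes, from 0) for PLAU over SERPINB2 and PLAUR in the 4 groups, with 1 point per library, bars for the mean and lines for the SD of 3 libraries. The knockdown libraries stand above all others in each panel, at means of 2.05 and 8.65.

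Other genes of the system were read from lists written for this purpose. Counts of genes that passed in them stand beside the shares of all genes tested. With TNF-α 3.22% rose and 0.885% fell, and in the knockdown 9.35% rose and 8.08% fell. Plasminogen itself (PLG) was listed at 0 in all 12 libraries, which allows 3 reads in each, or 0.0805 to 0.0962 FPKM for a gene with 1 kb of exons. Of the 5 genes listed for plasminogen and its surface receptors, 4 were tested and none passed in the TNF-α, 5-OH-TMT or knockdown comparison, with medians of 0.076, -0.062 and -0.063 on the log2 scale. Annexin A2 (ANXA2) and S100A10, which form a plasminogen-binding complex, were abundant, at 230 and 238 FPKM in the knockdown.

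Among 6 other inhibitors of the activators or of plasmin, 3 were tested. In the knockdown 2 of them rose, with a list median of 1.53, which is the SERPING1 value itself. SERPING1, the C1 inhibitor, rose by 1.53 (limma adjusted p = 4.64e-05), and the other was the broad protease trap A2M, named after its values were seen, which rose by 1.91 (limma adjusted p = 0.000274) from 0.344 to 1.54 FPKM. With TNF-α and with 5-OH-TMT none of the 3 passed, at medians of -0.15 and 0.13.

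The receptors and partners of uPAR were 16 genes, of which 13 were tested. With TNF-α, 2 rose, EGFR by 0.66 (limma adjusted p = 0.000577) and the integrin chain ITGA5 by 0.55 (0.0112). In the knockdown 5 rose and 1 fell. The largest rises were those of LRP1, which takes up complexes of uPA with its inhibitors (1.01, limma adjusted p = 0.000204), of ITGA5 (0.97, 0.000122) and of FPR1, a chemotactic receptor that responds to uPAR fragments (0.58, 0.0394). The others, named after their values were seen, were the uptake receptors SORL1 (0.49) and IGF2R (0.39), which rose, and the integrin chain ITGB5, which fell by 0.21 (limma adjusted p = 0.0489). Medians of 0.086 with TNF-α, 0.15 for 5-OH-TMT, where none passed, and 0.41 in the knockdown were found.

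A list of proteases that can activate pro-uPA, and of inhibitors of those proteases, held 12 genes with 8 tested. It also counted the growth factors HGF, which was not tested, and MST1, which was, though they are neither. None of the 8 passed with TNF-α or with 5-OH-TMT, with medians of 0.030 and 0.26. In the knockdown 5 rose, with a median of 0.46. The membrane protease TMPRSS4 rose by 1.76 (limma adjusted p = 2.43e-05), the Kunitz inhibitor SPINT1 by 0.83 (0.000121) and prostasin (PRSS8) by 0.53 (0.0124). The other 2 that rose, named after their values were seen, were the proteases matriptase (ST14, 0.37) and cathepsin B (CTSB, 0.52), so that the list held rises of proteases and of an inhibitor of proteases.

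PLAUR has relatives with the same three-finger fold, and 7 of the 9 listed were tested. CD59, a shield against complement, rose with TNF-α by 0.47 (limma adjusted p = 0.000989) and in the knockdown by 0.23 (0.0281). LYPD6B (0.50, limma adjusted p = 0.0211) and LYPD3 (0.41, 0.00837) rose in the knockdown, and none of the 7 passed with 5-OH-TMT. PLAUR itself, at 0.61, had a larger estimate than each of the 3. The medians of the list were -0.013, 0.32 and 0.28 in the TNF-α, 5-OH-TMT and knockdown comparisons.

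**Figure D4:**
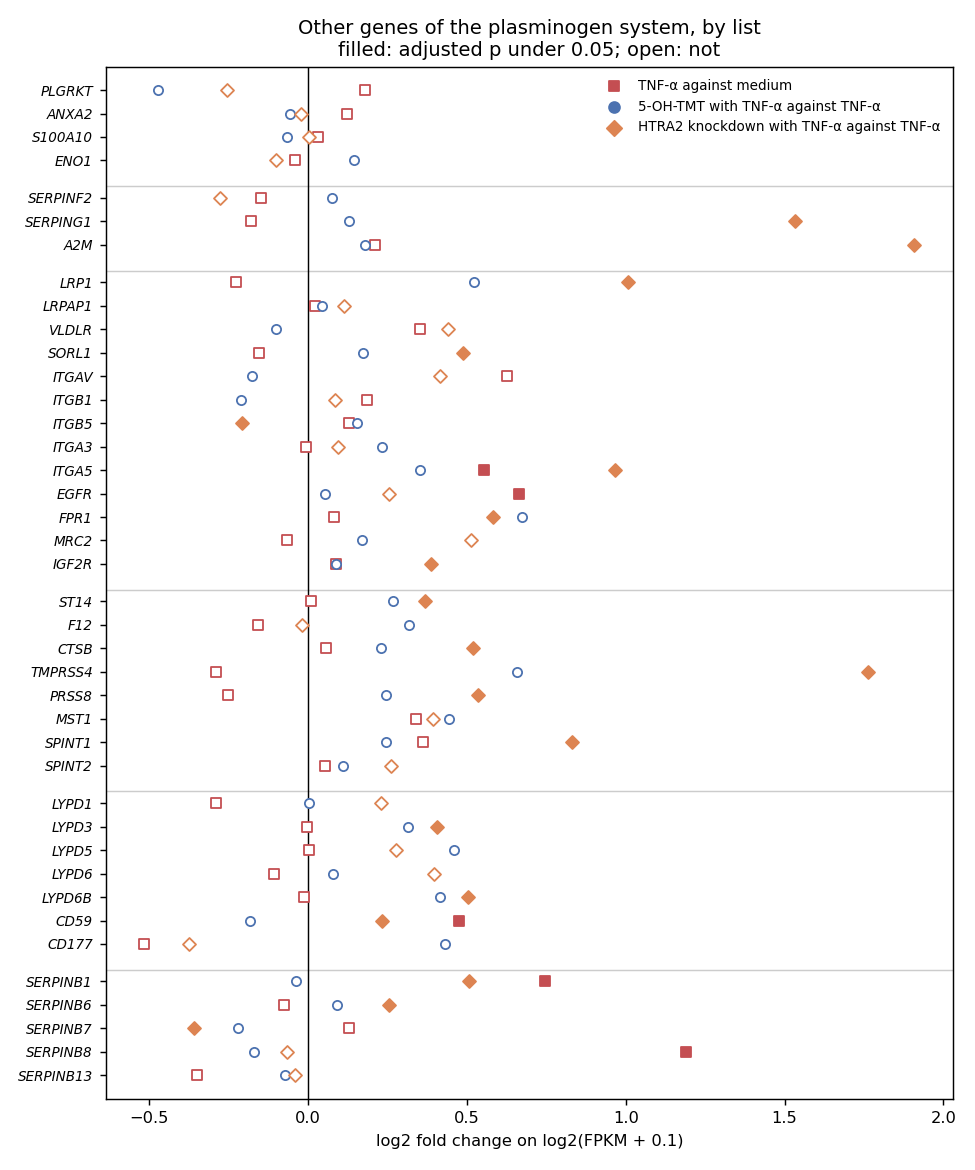
Log2 fold changes on the log2(FPKM + 0.1) scale (horizontal axis) of the tested genes of 6 lists, separated by lines, in 3 comparisons, with filled symbols where the limma adjusted p was under 0.05. A2M has a filled symbol at 1.91 in the knockdown, TMPRSS4 at 1.76, and no 5-OH-TMT symbol is filled.

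SERPINB2 and SERPINB5 lie in the same row of clade B serpin genes on chromosome 18, with 6 such genes between them. Of these, SERPINB13 and SERPINB7 were tested, and neither passed with TNF-α. SERPINB12 and SERPINB11 were listed at 0 in every library, and SERPINB13 had a mean of 0.164 FPKM. SERPINB3 and SERPINB4, which are near-identical copies and can trade reads, stayed under 0.2 FPKM in every group mean. SERPINB7, which lies just before SERPINB2, had a mean of 7.92 FPKM with TNF-α and 7.23 in medium (log2 difference 0.13, limma adjusted p = 0.596). SERPINB8, the last of the row, rose with TNF-α by 1.19 (limma adjusted p = 0.000454) from a mean of 0.669 FPKM.

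Of 11 other clade B serpins, on chromosome 18 or elsewhere, 5 were tested. With TNF-α, SERPINB8 rose and SERPINB1, an inhibitor of neutrophil elastase, rose by 0.75 (limma adjusted p = 0.000176). In the knockdown SERPINB1 rose by 0.51 (limma adjusted p = 0.00132) and SERPINB6 by 0.25 (0.0337), while SERPINB7 fell by 0.36 (0.0196). None passed with 5-OH-TMT. The medians were 0.13, -0.074 and -0.040 in the TNF-α, 5-OH-TMT and knockdown comparisons.

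**Figure D5:**
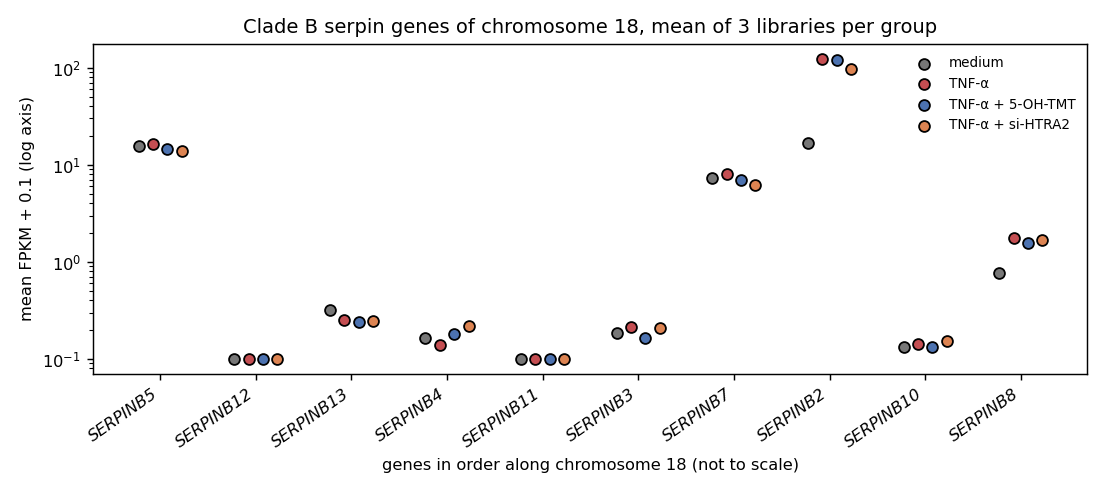
Mean FPKM + 0.1 of 3 libraries per group (log axis) for the 10 clade B serpin genes of chromosome 18, in their order along the chromosome and not to scale. SERPINB2 goes from 16.8 FPKM in medium to 123 with TNF-α, between SERPINB7, whose group means run from 6.15 in the knockdown to 7.92 with TNF-α, and SERPINB10, which is under 0.1 FPKM in each group.

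Markers of other cell types were read beside these changes. Of 4 stromal markers 1 was tested, COL1A1, and it rose in the knockdown to 2.89 FPKM from 1.17 with TNF-α (limma adjusted p = 0.000126), while COL1A2, COL3A1 and PDGFRB were at or near 0. The summed stromal level was 1.02 to 1.13 FPKM in medium, 1.001 to 1.32 with TNF-α, 1.15 to 1.46 after 5-OH-TMT and 2.60 to 3.24 in the knockdown. Of 3 endothelial markers, CDH5 was the 1 that passed, at 0.335 FPKM in medium, 1.32 with TNF-α, 1.65 after 5-OH-TMT and 2.79 in the knockdown, an order shared with PLAU, and PECAM1 and VWF stayed under 0.2 FPKM. The summed endothelial level was 0.491 to 0.597 FPKM in medium, 1.42 to 1.57 with TNF-α, 1.77 to 2.01 after 5-OH-TMT and 2.21 to 3.62 in the knockdown. Of 4 immune markers 1 was tested, CD14, at a mean of 0.397 FPKM in medium, 0.0946 with TNF-α, 0.258 after 5-OH-TMT and 0.443 in the knockdown. CD14 rose in the knockdown against TNF-α by 1.41 on the log2 scale (limma adjusted p = 0.0163), and its difference of -1.33 with TNF-α did not pass (0.0610). PTPRC and CD3E were at or near 0 in all groups, and the summed immune level was 0.231 to 0.524 FPKM in medium, 0.0711 to 0.145 with TNF-α, 0.179 to 0.307 after 5-OH-TMT and 0.294 to 0.727 in the knockdown. Among epithelial and squamous markers, CDH1 (84.8 against 64.2 FPKM), KRT19 (3.69 against 2.11) and KRT5 (166 against 125) rose in the knockdown against TNF-α and TP63 fell (9.87 against 12.7). The part of such changes in those of the members was not tested.

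Across the 12 libraries, the genes whose log2(FPKM + 0.1) followed each member most closely were ranked among 11185 genes as a description, since the libraries share their groups. For PLAU they were the interferon-induced GTPase GBP1 (Pearson r = 0.996), the kinase LYN (0.996) and the adhesion molecule ICAM1 (0.995). For PLAUR they were LAMB3 (0.992), a laminin chain of the epithelial basement membrane, TMEM132A (0.991) and USP43 (0.990). For PLAT they were QPRT (0.986), CALCOCO1 (0.973) and P2RX4 (0.972). SERPINE2 and SERPINB2, which lie on different chromosomes, had each other as the closest gene (0.982), followed by ETS1 (0.980) and FRMD6 (0.976) for SERPINE2 and by TRAF3 (0.981) and GPR176 (0.980) for SERPINB2. The closest gene to SERPINB5 was CD58 (0.916), then DERL2 (0.888) and MED21 (0.885). Within the list, r was 0.971 between PLAU and PLAUR and 0.194 between PLAT and SERPINB2 over the 12 libraries.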

How the data were processed

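Poly(A)-selected RNA libraries of 12 NCM460 samples were analysed from the table of FPKM that the authors deposited, which also gives each gene's length and position. Per the submitters' processing notes, CASAVA 1.8, HISAT2 2.0.4 and HTSeq 0.9.1 were used with hg38. The scaling of the FPKM, the strandedness of the counting and the replication of the cultures are not given in the sources used here. Of the 58735 genes, 99.9% had the same position as in GENCODE 29. Multiplying FPKM by gene length gave whole reads (within 0.01) for 100% of the values, and these recovered reads gave the depth and the voom alternative. FPKM are not counts, so no count model was the main test.

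With R 4.3.3 and limma 3.58.1, log2(FPKM + 0.1) was modelled by group for the 18079 genes whose mean over all libraries reached 0.1 FPKM, with eBayes and a trend, 8 residual degrees of freedom, two-sided tests and Benjamini-Hochberg adjustment over all genes tested. Genes were called at an adjusted p under 0.05. All fold changes are on the log2(FPKM + 0.1) scale, which understates those of low genes, and they refer to mRNA, not to protease activity. Single values were compared by exact permutation of 3 libraries against 3. Libraries of the TNF-α group enter 3 comparisons and those of medium enter 3, so the comparisons are not independent. The fit was also run on simulated data, with changes larger than the member differences near the threshold, so that run does not bear on them.

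All 6 members were named. From each other list, up to 3 genes per comparison with the largest change among those called with a mean of at least 1 FPKM could be named, and the 3 genes most like each member by Pearson's r. The members and lists were chosen with earlier results of these data known, and the ratios after the values were seen. The lists covered plasminogen and its surface receptors, other inhibitors, and partners and uptake receptors of uPAR. They also covered proteases that activate pro-uPA with their inhibitors, relatives of PLAUR, other clade B serpins and markers of cell types. Counted with the proteases were the growth factors HGF and MST1. An item of the list of other inhibitors is not reported here and is not in its counts. Upstream sequences came from the RefSeq promoter table (GRCh38.p14), from the entry nearest the 5′ end of a principal GENCODE 29 transcript. Its start was 0 to 679 bases from that end. Alternatives were other pseudocounts (1 and 0.01), no filter or a mean of at least 1 FPKM, median of ratios, quantile normalization, eBayes with no trend, a fit to only the libraries of a comparison, a term for the replicate number, voom, and each library left out.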

Additional observations from a re-analysis of the deposited data

How the results depend on the processing

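Under the 10 alternatives with all libraries, the number of members called stayed at 4 for TNF-α against medium, 0 for 5-OH-TMT against TNF-α, and 3 to 4 for the knockdown against TNF-α, where SERPINB2 was added by the stricter filter and by voom. With each library left out in turn these counts were 4, 0 and 3 to 4 again, and against medium they were 4 for 5-OH-TMT and 5 for the knockdown under every alternative. In the knockdown, SERPINB2 passed without replicate 2 of that group (-0.41, limma adjusted p = 0.0403) and SERPINB5 passed without replicate 3 (-0.30, limma adjusted p = 0.0307). Signs changed only for differences that had not passed. For SERPINB5 with TNF-α, leaving out a library gave log2 values of -0.011 to 0.114, and for SERPINB2 with 5-OH-TMT against TNF-α it gave -0.19 to 0.050. Replicate numbers did not pair the libraries across all groups, since 5 of 18 pairs with the same number had deviations correlated above 0.1 and r ran from -0.366 to 0.151. Between medium and TNF-α, however, pairs with the same number had r of 0.0647, 0.137 and 0.151, above every other pair of those groups. In the fit with the replicate block, 4, 0 and 3 members passed in the 3 main comparisons, and PLAU in the knockdown kept a log2 change of 1.84 (limma adjusted p = 3.53e-05). Each library best matched its own number in 16 of 36 cases. The median log2 difference of all genes lay between -0.063 and 0 in every comparison, with no further scaling, median of ratios or quantile normalization. The members whose call turned on 1 library were thus SERPINB2 and SERPINB5 in the knockdown, at -0.33 and -0.22 with all libraries.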
